A study of Brassica rapa with 36 samples.

Results

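Of 47135 genes, 5 met a rule for genes read in every sampled tissue of the Brassica rapa line 49CX and at most 3 times in the matching tissues of the line K2. They were BraC02g002150.1, BraC03g028010.1, BraC05g029120.1, BraC08g034110.1 and BraC09g010870.1. The genes were chosen by their measured values. A gene had to average at least 20 CPM (counts scaled by the total gene counts of a library) in each of 4 groups of 49CX, to hold at most 3 counts summed over the 12 K2 libraries of the same tissues, and to differ by less than 1 on the log2 scale between heated and unheated 49CX microspores, with 20 CPM added to both. The floor in 49CX was met by 3500 genes, and 5 of these stayed under the K2 ceiling. With the lines exchanged, 4658 genes met the floor in K2, and 5 of them met both the ceiling of 3 counts in 49CX and the heat limit in K2. That ceiling was looser, since 3 counts correspond to 1.15 CPM over the 12 libraries of 49CX and to 0.533 CPM over the 12 of K2.

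The study followed RNA during androgenesis, the formation of embryos from microspores, which are immature pollen cells. It used 2 genotypes, with 49CX described as a line that cannot be induced and K2 as one that can. In each line 3 libraries were made of microspores labelled as after heat shock, of microspores labelled as without heat shock, of late unicellular microspores and of stalk leaf. These 4 groups of 49CX and 4 of K2 are called heated, unheated, late and leaf here, and pollen and embryos of 2, 4 and 8 cells were sampled in 3 libraries each of the K2 genotype alone. The labels name no transgene, agent or deletion, and do not state how long or how hot the heat shock was, or how many cells or plants stand behind a library.

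In Brassica, a heat stress can turn microspores away from pollen formation and into embryo development, and lines of 1 species differ widely in how readily this happens. Lines also differ in their gene content and in which genes they express, and an ancient multiplication of the genome left many Brassica genes with related copies. Genes with transcripts in 1 line and few in another are a familiar feature of comparisons between lines. The deposited tables pair no ID with a gene name, and 0 of the 47135 IDs matched the available RefSeq gene table for assembly CAAS_Brap_v3.01. No function, position or sequence is therefore given for any of the 5 genes, and tissue labels were not checked against marker genes.

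The values are read counts per gene. The 12 libraries of 49CX held 2599850 gene counts in all, with 85651 to 536090 per library, and the 12 of K2 held 5633352, with 208244 to 1179935. At that depth 3 counts over all 12 K2 libraries correspond to 0.533 CPM, so K2 was read more deeply than the line in which the genes were found. Of the reads listed under a gene, under several genes or outside genes, 60.1% to 85.3% were outside genes in 49CX libraries and 53.4% to 83.5% in K2 libraries. Libraries were strand-specific per the labels, but the strand setting of the counting is not given in the sources used here, so reads from an overlapping antisense gene cannot be told apart. Each library is bulk RNA, in which fewer cells of a type and less RNA per cell cannot be told apart.

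All 5 genes had reads in 12 of 12 libraries of 49CX, at 79 to 250 counts per gene in total, and in no group of the line were they at 0. Because the rule asked for a level in each group, this breadth describes how the genes were chosen. The counts behind single values were small, at 1 to 28 in every library except 2 leaf libraries of BraC02g002150.1. CPM is not corrected for gene length, which the files do not give, so levels are compared between groups of 1 gene and not between genes. Mean values are given ± SD over 3 libraries, and replicate numbers are those of the labels. CPM here is scaled by library size, and where TMM, the scaling of the tests below that sets the bulk of genes to no change, gives another order of groups, its values from the fit without a low-count filter are added.

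BraC02g002150.1 had its highest mean in 49CX leaf under both scalings. Its level was 68.1, 49.3 and 46.3 CPM in heated, 19.97, 19.3 and 25.1 CPM in unheated, and 71.3, 70.1 and 17.6 CPM in late microspores of replicates 1, 2 and 3. In leaf it was 70.3, 151 and 194 CPM, from 15, 81 and 102 counts. Leaf replicates 2 and 3 lay above every microspore library, whereas leaf replicate 1 lay among the late microspores, and late replicate 3 was below all 3 unheated libraries. The means were 54.6 ± 11.8 CPM in heated, 21.5 ± 3.14 in unheated, 53.0 ± 30.6 in late microspores and 138 ± 62.8 in leaf, which spans a 6.45-fold range. Scaled by TMM the range was 9.23-fold. Leaf, at 81.2 CPM or more, then lay above every microspore library, of which a heated one was highest at 59.9 CPM. Heated and unheated libraries did not overlap, at a log2 ratio of 0.85 with 20 CPM added, which lies inside the limit of 1 that chose the genes.

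By library size, BraC05g029120.1 had its highest mean in late microspores, but late microspores and leaf were not told apart once scaled by TMM. It had 40.9, 30.8 and 9.27 CPM in the heated libraries and 19.97, 33.9 and 12.5 CPM in the unheated ones. It had 80.2, 175 and 88.1 CPM in late microspores and 70.3, 39.2 and 38.03 CPM in leaf. On this scale all 3 late libraries were above every other library of the line, and heated and unheated libraries overlapped. The means were 27.0 ± 16.2, 22.1 ± 10.8, 114 ± 52.7 and 49.2 ± 18.3 CPM in heated, unheated and late microspores and in leaf, a 5.17-fold range. By TMM the late libraries, at 58.6 to 122 CPM, overlapped with the leaf libraries at 61.4 to 81.2 CPM, while unheated and late libraries stayed apart.

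BraC03g028010.1 had 34.1, 18.5 and 37.1 CPM in heated, 39.9, 14.5 and 29.2 CPM in unheated, 35.6, 81.7 and 52.9 CPM in late microspores, and 18.8, 33.6 and 26.6 CPM in leaf. Late microspores and leaf did not overlap on this scale, while heated and unheated libraries lay across the leaf values. The means were 29.9 ± 9.96, 27.9 ± 12.8, 56.7 ± 23.3 and 26.3 ± 7.41 CPM in the same order of groups, a 2.16-fold range. The pooled late level of 54.6 CPM had an exact Poisson 95% interval of 31.8 to 87.4, against 28.2 CPM in leaf with an interval of 19.8 to 39.1. By TMM late microspores and leaf overlapped, with means of 40.4 and 40.2 CPM, and the range between groups was 1.54-fold.

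BraC08g034110.1 had a 1.64-fold range between group means by library size and a 2.53-fold range by TMM. Its values by library size were 54.5, 30.8 and 27.8 CPM in heated, 33.3, 33.9 and 41.8 CPM in unheated, 71.3, 46.7 and 52.9 CPM in late microspores, and 84.4, 41.0 and 53.2 CPM in leaf. Unheated and late libraries did not overlap, and every other pair of groups did. The means were 37.7 ± 14.6, 36.3 ± 4.75, 56.9 ± 12.8 and 59.6 ± 22.4 CPM. By TMM unheated and late libraries overlapped. The heated (24.1 to 47.9 CPM), unheated (34.4 to 47.0 CPM) and late libraries (32.6 to 52.1 CPM) all lay under the leaf libraries at 68.6 to 97.5 CPM.

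BraC09g010870.1 rested on the fewest reads, 79 over the line. It had 27.2, 61.7 and 27.8 CPM in heated, 13.3, 19.3 and 29.2 CPM in unheated, 35.6, 58.4 and 35.2 CPM in late microspores, and 28.1, 37.3 and 19.0 CPM in leaf. By library size, unheated and late libraries were apart and no other pair of groups was. The means were 38.9 ± 19.7, 20.6 ± 8.04, 43.1 ± 13.2 and 28.2 ± 9.15 CPM, a 2.09-fold range. Ordered by mean, heated microspores and leaf lay between late and unheated microspores and overlapped with the groups next to them. By TMM leaf had the highest mean, at 41.8 ± 17.8 CPM, and unheated and late libraries overlapped.

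**Figure D1:**
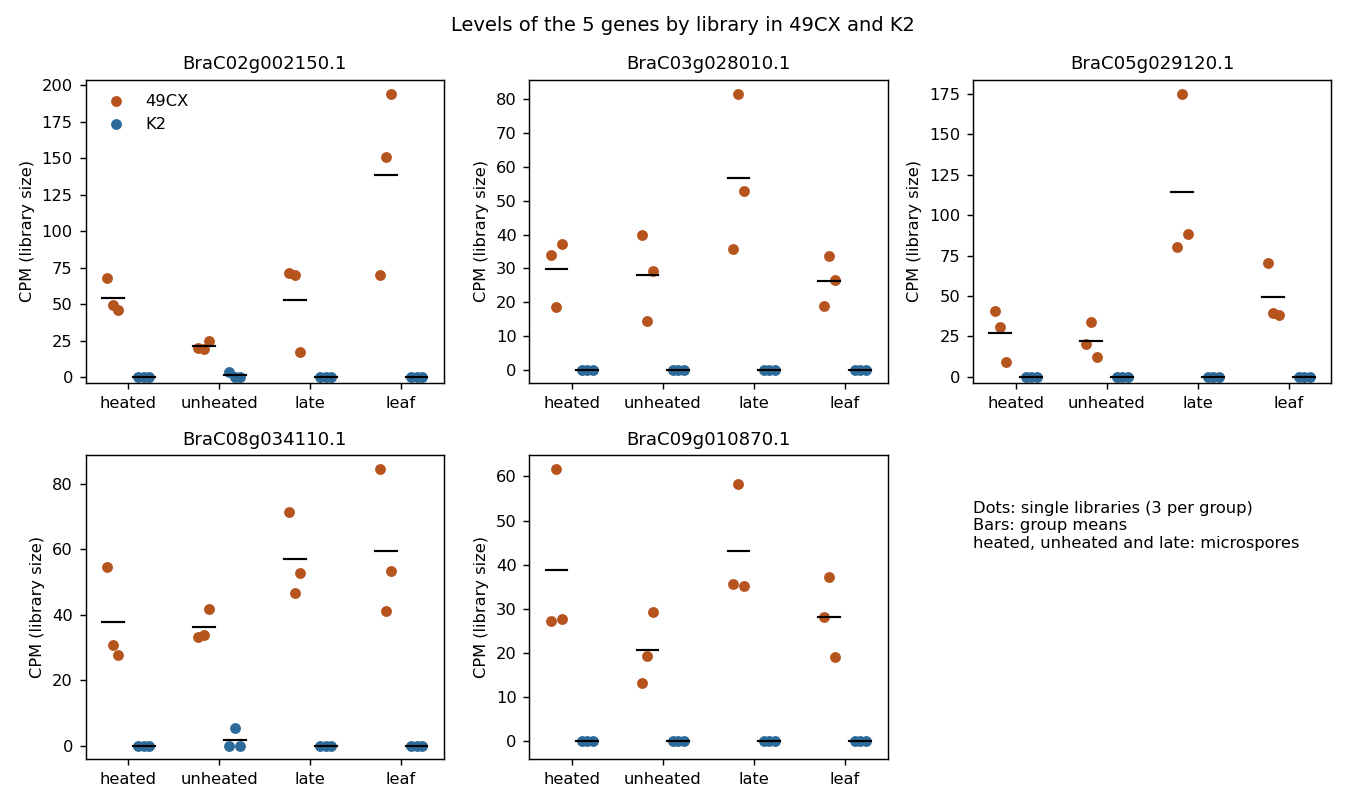
Level of each gene in CPM (vertical axis, scaled by library size) in heated, unheated and late microspores and leaf, with 49CX left of K2 in each pair, dots for single libraries and bars for means of 3. All 12 libraries of 49CX lie above 0 in each panel, and the K2 libraries lie at 0 except for 1 unheated library of BraC02g002150.1 and 1 of BraC08g034110.1.

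In K2 the same genes were almost without reads. BraC03g028010.1, BraC05g029120.1 and BraC09g010870.1 had 0 counts in each of the 12 K2 libraries. BraC02g002150.1 had 1 count, in unheated replicate 1, and BraC08g034110.1 had 2 counts, both in unheated replicate 2. A wording of absence therefore fits 3 of the 5 as far as these counts go, and a count of 0 records that no read was assigned to the ID, not that the gene is missing from the DNA, which was not measured.

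The depth of K2 would have shown the genes at their 49CX level. At the 49CX mean CPM of each tissue, the 12 K2 libraries would have held 518 counts of BraC02g002150.1, 182 of BraC03g028010.1, 296 of BraC05g029120.1, 293 of BraC08g034110.1 and 176 of BraC09g010870.1. The observed numbers were 1, 0, 0, 2 and 0. Over the 3500 genes past the floor the observed K2 count was a median of 1.09 times the number computed in this way, the first percentile was 0.175, and the lowest ratio outside the 5 genes was 0.0118. These values are the ones the genes were selected on, and no test was made of them.

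**Figure D2:**
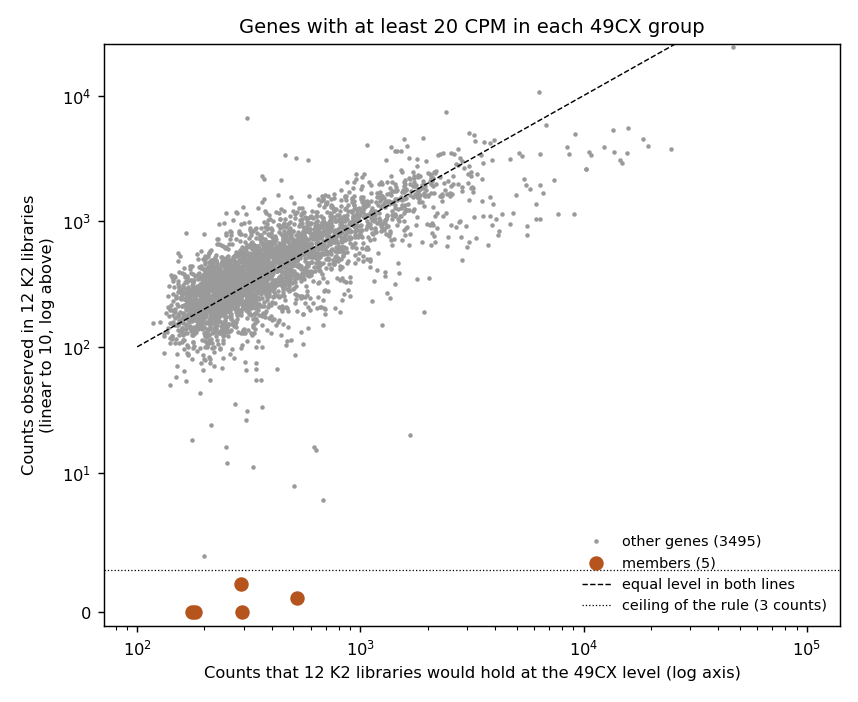
Counts observed in 12 K2 libraries (vertical axis, linear to 10 and logarithmic above) against the counts those libraries would hold at the 49CX level (horizontal log axis) for the 3500 genes with at least 20 CPM in each 49CX group. Most genes follow the dashed line of equal level, and the 5 chosen genes lie at 0 to 2 counts, under the dotted ceiling of 3.

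The leaf libraries set the tightest bound on the line difference, since K2 leaf alone held 2879402 gene counts. Each bound divides the 49CX mean CPM by a floor of 3 counts over the K2 group. It leaves out the counting error of 49CX, and the genes were chosen on this difference. Taken so, BraC02g002150.1 was at least 133-fold higher in 49CX than in K2 leaf. BraC08g034110.1 was at least 57.2-fold, BraC05g029120.1 at least 47.2-fold, BraC09g010870.1 at least 27.0-fold and BraC03g028010.1 at least 25.3-fold higher in leaf. In microspores the bounds were looser, because the K2 groups held 888573 to 962944 gene counts.

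In late microspores the 5 genes were at least 13.8-fold to at least 36.7-fold higher in 49CX, with BraC05g029120.1 at the upper end and BraC09g010870.1 at the lower. In heated microspores the bounds ran from at least 8.12-fold for BraC05g029120.1 to at least 16.4-fold for BraC02g002150.1. In unheated microspores they were at least 8.26-fold, 6.55-fold and 6.11-fold for BraC03g028010.1, BraC05g029120.1 and BraC09g010870.1. With the error of 49CX taken in they would be lower. The pooled unheated 49CX level of BraC09g010870.1, 21.8 CPM, had an exact Poisson 95% interval of 11.6 to 37.3. The pair with K2 reads in that tissue gave ratios instead, of 19.4 for BraC02g002150.1 with a 95% interval of 2.91 to 823, and of 16.4 for BraC08g034110.1 with an interval of 4.03 to 144. These are exact intervals for counting error only. The rule chose the genes on this line difference, so a higher level in 49CX was set in advance. The intervals do not allow for that choice and describe the chosen values.

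The ceiling of the rule fell in a sparse stretch of the counts. Of the 3500 genes, 3 had 0 counts in the 12 K2 libraries, 2 had 1 to 3, 10 had 4 to 20, 55 had 21 to 100 and 3430 (98%) had more. Just inside the ceiling was BraC08g034110.1 with 2 counts, and just outside it BraC06g017420.1 with 4. At the floor, BraC09g010870.1 was just inside with 20.6 CPM in unheated 49CX microspores, and BraC06g051230.1 just outside with 19.7 CPM in 49CX leaf and 1 count in K2. The limit on the heated against unheated ratio removed no gene. With a floor of 10 CPM the rule would take 11 genes and with a floor of 50 CPM none.

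All 3 K2 reads of the 5 genes came from unheated microspores, which held 15.8% of the gene counts of the 12 K2 libraries. The 10 genes with 4 to 20 K2 counts, looked at after this was seen, had 129 K2 counts in all. Of these, 14 were in heated microspores, 56 (43.4%) in unheated microspores, 15 in late microspores and 44 in leaf. In K2, 6 of the 10 had reads in heated microspores, 10 in unheated microspores and 5 each in late microspores and leaf. The share of reads outside genes also differed between these groups, at 62.7% to 64.5% in heated, 79.8% to 80.1% in unheated and 69.6% to 83.5% in late K2 microspores and 53.4% to 57.5% in K2 leaf. Its part in the placement of the K2 reads was not tested.

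K2 libraries that the rule did not use also held no read of the genes. All 5 had 0 counts in K2 pollen replicate 1 and in each of 9 embryo libraries, which together held 807464 gene counts, so that 3 counts correspond to 3.72 CPM. Of the other 3495 genes past the floor, 10 (0.286%) had 0 counts there, and the median was 34 counts. The 5 genes had been chosen for at most 3 counts in 12 K2 libraries with 5633352 gene counts, and the 3495 had not. Few or no reads in these shallower K2 libraries were therefore largely set by that choice, and the shares are given as a description. In the 9 embryo libraries alone 13 of 3495 (0.372%) had 0 counts. The pollen library alone says little, since 1763 of 3495 (50.4%) had 0 counts in it and 3 counts correspond to 25.4 CPM. Of the 10 genes just outside the ceiling, 4 had 0 counts in the 10 libraries. K2 pollen replicates 2 and 3 held no gene counts at all and were not used.

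Neighbouring IDs were then read in the same way, taking the 5 IDs before and the 5 after each gene in sorted order. ID order is not stated to follow position in the genome, and the window was chosen after the values had been seen. Of the 50 neighbours, 22 had at least 10 counts in 49CX, and 2 of these (9.09%) had 0 counts in K2, against 48 of 22790 other genes (0.211%). A level more than 2 times higher in 49CX was found for 5 of the 22 (22.7%), against 3781 of 22790 other genes (16.6%). Most neighbours were thus read in both lines.

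The longest run without K2 reads ended at BraC03g028010.1. It covered 4 consecutive IDs from BraC03g027980.1 to BraC03g028010.1, which had 15, 9, 2 and 81 counts in 49CX and 0 each in K2, and 0 each in K2 pollen and embryos. The next ID after the run, BraC03g028020.1, was read in both lines, with 65 counts in 49CX and 90 in K2. Beside BraC08g034110.1, the next 2 IDs, BraC08g034120.1 and BraC08g034130.1, had 4 and 28 counts in 49CX and 0 in K2, and the ID before it had 27 counts in 49CX and 5 in K2. The ID before BraC09g010870.1 had 30 counts in 49CX and 2 in K2. Several of these genes have so few counts in 49CX that 0 in K2 is weakly bounded.

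Other neighbours went the opposite way. The ID after BraC02g002150.1 had 3 counts in 49CX and 112 in K2. BraC05g029080.1, 3 places before BraC05g029120.1, had 3 counts in 49CX and 142 in K2. The ID 3 places after BraC03g028010.1 had 0 counts in 49CX and 43 in K2. The K2 total was over that of 49CX, so equal levels would give more counts in K2, but not by these ratios: the 3 counts of BraC02g002160.1 in 49CX would correspond to 6.50 in K2.

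**Figure D3:**
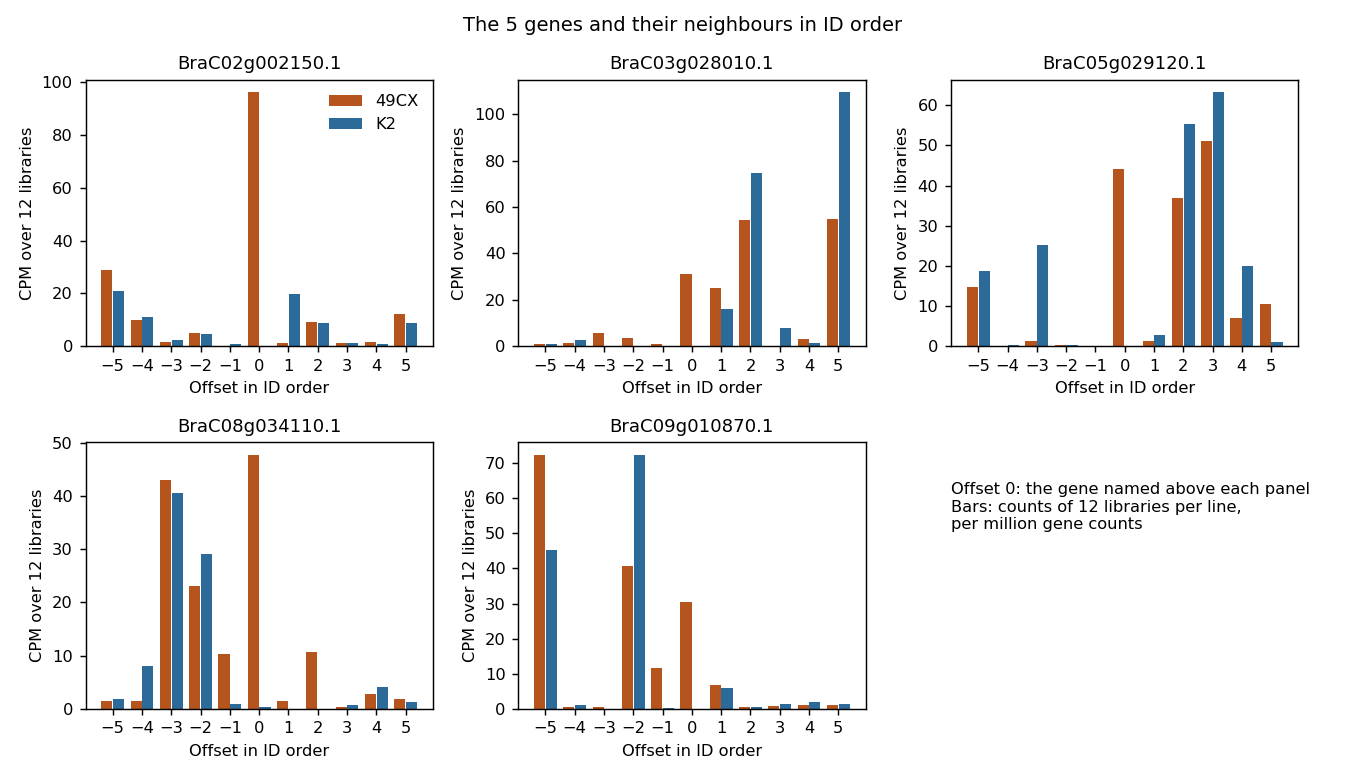
Level in CPM over 12 libraries of each line (vertical axis, 49CX left of K2) for each of the 5 genes at offset 0 and for 5 IDs on either side in sorted ID order (horizontal axis). K2 bars are at or near 0 at offset 0 in each panel, and most neighbours with a visible bar have one in both lines.

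Within 49CX, 3 contrasts other than heated against unheated were tested over the 12 libraries of the line by the quasi-likelihood test of edgeR. The rule bears on them too. Its floor of 20 CPM held for each group mean and limited how low a gene could be, with unheated means of 20.6 to 22.1 CPM in 3 of the genes, and its heat limit ties the contrasts of heated and unheated with late microspores to each other. Log2 fold changes are first group over second, scaled by TMM, and genes were called at a Benjamini-Hochberg adjusted p under 0.05. The low-count filter asked for 64.0 CPM in at least 3 libraries, which left 5390 genes and only BraC02g002150.1 and BraC05g029120.1 of the 5. BraC05g029120.1 reached that level in the 3 late libraries and 1 leaf library, so it passed through the late group in which it was high. Counts of genes called are therefore taken from a fit of 41698 genes without that filter, which covers all 5, and the filtered values are given beside them. Whether replicates are separate plants is not stated in the labels, and these p-values measure the spread between samples, which may be technical.

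Late microspores against leaf showed 1 of the 5 genes lower and none higher, in a contrast where 64.3% of filtered genes and 15.6% of unfiltered genes were called. BraC02g002150.1 was lower in late microspores by a log2 fold change of -2.54 (SE 0.40, edgeR adjusted p = 7.05e-08), with groups that overlapped through 1 leaf library by library size and not by TMM. Without the filter the value was -2.57 (SE 0.41, edgeR adjusted p = 1.33e-08). BraC05g029120.1 was not called (log2 fold change 0.24, SE 0.39, edgeR adjusted p = 0.602), although its groups did not overlap by library size. Without the filter, BraC08g034110.1 had -0.99 (SE 0.47, edgeR adjusted p = 0.163), and BraC03g028010.1 and BraC09g010870.1 had -0.10 and -0.50, none of them called.

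The scaling matters most in that contrast. TMM set the median gene 1.33 lower on the log2 scale than library size did with the filter, and 0.85 lower without it. Scaled by library size with the filter, BraC05g029120.1 had a log2 fold change of 1.56 and was called higher in late microspores (edgeR adjusted p = 0.000469). It passed that filter through the late libraries, and 4235 of 5390 genes were called in that fit. Without the filter its value by library size was 1.27. BraC03g028010.1, BraC08g034110.1 and BraC09g010870.1 turned to 0.97, 0.05 and 0.56 by library size without the filter. BraC02g002150.1 stayed lower, at -1.21 with the filter.

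Unheated against late microspores gave 1 gene lower and none higher, beside 38% of filtered and 4.42% of unfiltered genes called. BraC05g029120.1 fell by 1.71 on the log2 scale without the filter (SE 0.54, edgeR adjusted p = 0.0383), with 19.97, 33.9 and 12.5 CPM in unheated and 80.2, 175 and 88.1 CPM in late microspores. With the filter, which it passed through those late libraries, the value was -2.16 (SE 0.50, edgeR adjusted p = 0.000323). BraC02g002150.1 had -0.63 (SE 0.59, edgeR adjusted p = 0.609) without the filter and -1.08 (SE 0.60, edgeR adjusted p = 0.149) with it. By library size with the filter it was called lower, at -1.60 (edgeR adjusted p = 0.0194), in a fit that called 2756 of 5390 genes. Without the filter BraC03g028010.1, BraC08g034110.1 and BraC09g010870.1 had -0.41, -0.04 and -0.35 and were not called. All 5 values were negative under both scalings, but so was the median gene, at -0.28 by TMM and -0.83 by library size without the filter. The shared sign is therefore not particular to the 5 genes.

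Heated against late microspores gave 0 of the 5 genes called without the filter, beside 2.91% of unfiltered and 28.5% of filtered genes. BraC05g029120.1 came nearest, at -1.63 (SE 0.55, edgeR adjusted p = 0.0892, unadjusted p = 0.0031), the 1 gene of the 5 with an unadjusted p under 0.05, and had 40.9, 30.8 and 9.27 CPM in heated microspores. DESeq2, run on all genes with its own filtering, called it lower, at -1.73 (adjusted p = 0.045). It was called with the filter (-1.76, SE 0.51, edgeR adjusted p = 0.00556), which it passed through the late libraries it is set against, and that call was lost without late replicate 2 or heated replicate 3, at -1.40 (edgeR adjusted p = 0.0907) and -1.38 (edgeR adjusted p = 0.0675). With the filter BraC02g002150.1 had 0.26 (SE 0.54, edgeR adjusted p = 0.762), and its sign turned by library size, at -0.13. Without the filter it had 0.39 (SE 0.53, edgeR adjusted p = 0.803) and, by library size, 0.09. The other 3 had -0.61, -0.29 and 0.24 without the filter, and that of BraC09g010870.1 turned to -0.05 by library size.

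Heated and unheated microspores were both compared with the same late libraries, so the values of BraC05g029120.1 in these contrasts are not independent of each other. Heated against unheated microspores was not tested, because the rule limited that difference, taken with 20 CPM added to both. For BraC02g002150.1 the added 20 CPM is close to its unheated mean of 21.5 CPM, against 54.6 CPM in heated microspores. With 1 CPM added in place of 20, this gene would not have met the limit. The log2 ratios of mean CPM, with 20 CPM added, were 0.85 for BraC02g002150.1, 0.54 for BraC09g010870.1, 0.16 for BraC05g029120.1, 0.06 for BraC03g028010.1 and 0.04 for BraC08g034110.1.

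**Figure D4:**
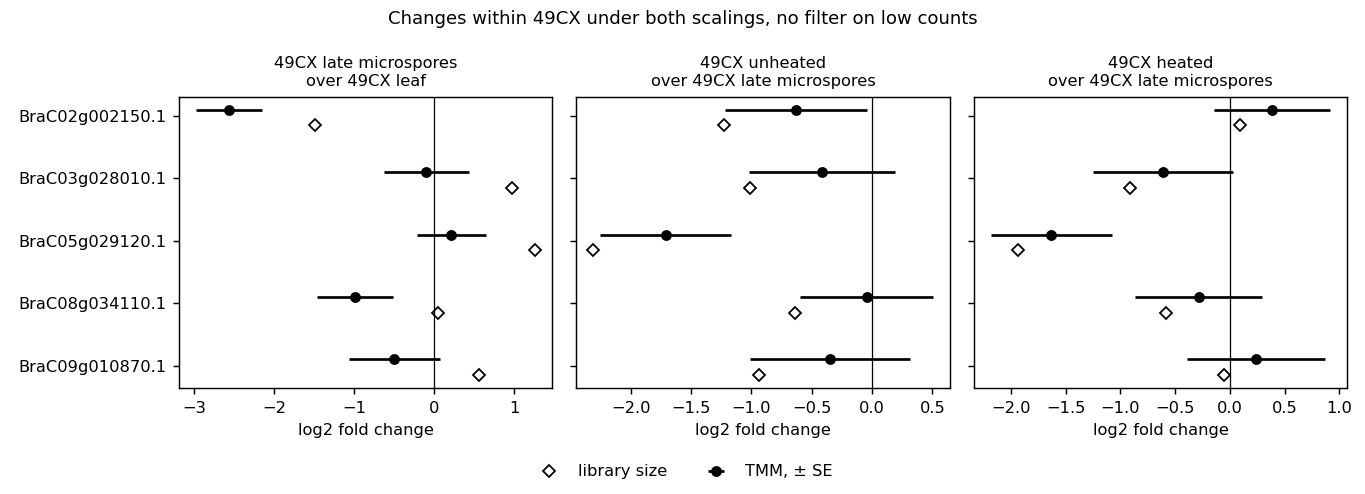
Log2 fold change (horizontal axis) of each gene in 3 contrasts within 49CX, from the fit without a low-count filter, with filled points for TMM scaling with SE bars and open diamonds for library size. BraC02g002150.1 lies left of 0 under both scalings for late microspores over leaf. For unheated over late microspores every gene does so. For heated over late microspores BraC03g028010.1, BraC05g029120.1 and BraC08g034110.1 do so.

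The gene most like BraC02g002150.1 in log2(CPM + 1) over the 12 libraries was BraC08g034110.1, with a correlation of 0.357 (Pearson) and 0.462 (Spearman). It was followed by BraC05g029120.1, with 0.240 (Pearson) and 0.294 (Spearman). BraC09g010870.1 had 0.221 (Pearson) and 0.203 (Spearman), and BraC03g028010.1 had 0.0165 (Pearson) and -0.147 (Spearman). Pairs among those 4 genes were not compared. These are weak values from sparse counts that share library depth, and are given as a description.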

How the data were processed

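RNA-seq of Brassica rapa was analysed from the deposited tables, 1 per library for 36 libraries in 12 groups of 3, of which 34 had gene counts. The tables as deposited by the authors hold whole-number read counts for each gene ID, not normalized. The submitters' processing notes list HTSeq, HISAT2, Picard and Trim Galore. Tool versions, genome build, annotation and strand setting were not given in the sources used here. Reads listed as not uniquely aligned were 0 in every table, so how reads of near-identical copies were treated is unknown.

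Rows that name no gene stayed out of totals and tests. The genes, windows and lists were chosen with earlier results of these data known. The window of neighbouring IDs and the set of genes just over the K2 ceiling were chosen after the values were seen. The naming rule covered the called genes with no overlap between groups, the pair with the highest mean CPM and the gene with the lowest, which are BraC02g002150.1, BraC05g029120.1 and BraC09g010870.1. The other 2 genes are named because there are only 5, after their values were seen.

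Contrasts within 49CX were fitted on the deposited counts with edgeR 4.0.16 (R 4.3.3, robust quasi-likelihood fit, TMM factors, filterByExpr by group, Benjamini-Hochberg adjustment over all genes tested), after the script had been tested on simulated data. Alternatives were DESeq2 1.42.0, its size factors, library size alone, no filter, other sets of libraries, a replicate block and leaving out single libraries. Levels on the TMM scale were added after seeing the data. Intervals for counts are exact Poisson intervals, and those for ratios come from exact binomial intervals, both at 95%. Both, like floors of 3 counts, take in counting error alone, because the tables count reads and not molecules. Replicate pairs were compared by chi-square across genes whose counts sum to 20 or more, and the closest pair was K2 late replicates 2 and 3 (p = 0.0216 across genes). That test sets libraries against counting noise alone and cannot show that they are separate samples, so the labels' replicates were used as given. K2 pollen replicates 2 and 3 had 0 gene counts and were left out.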

Additional observations from a re-analysis of the deposited data

How the results depend on the processing

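The number of genes meeting the rule depended on its limits. It was 11 with a floor of 10 CPM, 0 with a floor of 50 CPM, 3 with a ceiling of 0 K2 counts and 8 with a ceiling of 10. It was 7 with TMM-scaled CPM and 4 with a pseudocount of 1, where BraC02g002150.1 dropped out. Leaving out 1 library gave 3 to 7 genes, with 3 without unheated 49CX replicate 3, where BraC02g002150.1 and BraC09g010870.1 dropped out. All 5 had 0 counts in K2 pollen and embryos under the alternatives run. That outcome was fixed in advance, because each alternative used part of the same libraries or a looser limit.

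For late microspores over leaf, 1 gene, BraC05g029120.1, was called higher by library size (log2 fold change 1.56) and with only both groups in the fit (0.90, edgeR adjusted p = 0.0358). Both fits used the low-count filter, and they called 4235 of 5390 and 2954 of 3813 genes. Without 1 library, 1 to 2 genes were called lower, with BraC08g034110.1 added without leaf replicate 2, and the value of BraC05g029120.1 ran from -0.15 without late replicate 2 to 0.49. For unheated over late microspores, 2 genes were called lower by library size and 1 under each other alternative. By library size, with the filter, 2756 of 5390 genes were called in all. For heated over late microspores, 1 gene, BraC05g029120.1, was called lower with the filter, 0 with no filter, and 0 in a fit of only these groups, whose own filter left none of the 5 to test. Without 1 library, 0 to 1 were, and BraC02g002150.1 ran from -0.13 without late replicate 3 to 0.55, with -0.13 by library size too. Beyond the effect of scaling and filters, the cause was not tested.

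Same-numbered libraries did not deviate together (r from -0.07 to 0.03 over 18 pairs, none over 0.1). The replicate number was fitted as a block with the filter kept, which left 2 of the 5 genes. As in the filtered fit without the block, 1 of these was called lower in each contrast and 0 higher. Of 5390 genes, 3458, 2078 and 1543 were called for late over leaf, unheated over late and heated over late. Values rest on 1 to 102 counts per library, and no detection limit was tested.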
